A study of Homo sapiens with 3 samples.

Results

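S100 proteins are small calcium-binding proteins of vertebrates that carry a pair of EF-hands, the helix-loop-helix fold that holds a calcium ion. Most work as dimers: calcium exposes a surface that grips a target such as an annexin, a myosin heavy chain or p53, and several members also leave the cell and act on receptors such as AGER (also called RAGE). S100A4 has long been studied in tumor spread, S100P and S100A6 in epithelial tumors, and S100A9 in neutrophils. Their mRNA was examined here in 3 cultured lines of human hepatocellular carcinoma (HCC). The genes described are S100A2, S100A3, S100A4, S100A6, S100A9, S100A10, S100A11, S100A13, S100A14 and S100P, 10 genes taken by symbol. Of these, 9 were among the 16149 genes listed in at least 1 library, and S100A9 was listed in none.

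Each line was sequenced as 1 library. The parent is labelled as HCCLM3 with a low ability to metastasize, although the study's methods call its HCCLM3-R parent, an HCCLM3 line that carries red fluorescent protein, highly metastatic. Subclone1 is labelled as more metastatic and lung-specific, and subclone2 as metastatic to both lung and celiac lymph node. Both carry the same HCCLM3 label, the study grew its clones from single cells of metastases in nude mice, and the sources used here do not name which clone either library is. All 3 lines were grown in DMEM, and none was described as treated. The libraries held 4488825 reads for the parent, 4609696 for subclone1 and 4725150 for subclone2. Levels are RPKM, the reads of a gene scaled by its length and by the total reads of the library, so genes of different length can be set side by side. With 1 library per line nothing could be tested between lines: the 95% counting intervals given below cover the sampling of reads only, and not the spread between cultures or between clones. In RNA of a whole culture, fewer cells with a transcript and less of it per cell cannot be told apart.

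Averaged over the libraries, 8 of the 10 genes reached 1 RPKM, as did 11370 of all genes. S100A14 was listed but fell below that level, and S100A9 was listed in no library. Markers of the labelled cell type were partly low. The 9 hepatocyte markers examined summed to 24.5 RPKM in the parent, 113 RPKM in subclone1 and 106 RPKM in subclone2, with the albumin gene ALB at 2.46, 49.5 and 68.8 RPKM and the transcription factor HNF4A at 11.7, 11.9 and 16 RPKM. This summed level was thus higher in both subclones, as were most S100 genes below, and its part in those differences was not tested. All 6 markers averaging 1 RPKM or more lay above the parent in both subclones, where 42.2% of all genes did, but not evenly. In subclone1 the ratios over the parent of HNF4A (1.01, 0.817 to 1.26) and AFP (1.73, 0.999 to 3.06) had intervals that held 1. So did that of TF in subclone2 (1.03, 0.637 to 1.67).

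The start regions of the genes are shown first, since they are the sequence nearest to the mRNA levels measured. In RefSeq (build GRCh38.p14) S100P lies on chromosome 4, from 6693878 to 6697170, and the other 9 genes lie on chromosome 1. There S100A10 starts at 151982915 and S100A11 at 152032506, while the other 7 lie between 153357854, the start of S100A9, and 153634361, the end of S100A13. The same tables gave 13 start windows for the 10 genes, each of 250 bases before and 50 after an annotated start. The letters TATAAA, searched on both strands, stood in 4 of the 13 windows, belonging to S100A4, S100A9, S100A13 and S100P, and in 11.5% of 35116 RefSeq windows of the same length. In these 4 the match began at -31, -29, -29 and -28 from the start. The letters TGANTCA, the core of the AP-1 site, stood in 2 windows, of S100A2 and S100A3, against 7.71% of all windows. GGGCGG, the GC box, stood in 6 windows against 45.0% of all. A match is a description of letters and not a binding site. The 120 bases before the start follow, 5′ to 3′ on the gene's strand, for the genes with TATAAA and for S100A2, the member that went the other way from the rest. S100A2 has 2 annotated starts and S100A13 has 3, and for each the start shown is the one whose window holds the motif. The other S100A2 window has no TGANTCA and the other S100A13 windows have no TATAAA. Capitals mark TATAAA or TGANTCA.
S100P (chr4:6693758-6693877, plus strand): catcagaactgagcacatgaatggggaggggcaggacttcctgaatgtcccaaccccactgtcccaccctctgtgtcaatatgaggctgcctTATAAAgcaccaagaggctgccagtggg
S100A13 (chr1:153627506-153627625, minus strand): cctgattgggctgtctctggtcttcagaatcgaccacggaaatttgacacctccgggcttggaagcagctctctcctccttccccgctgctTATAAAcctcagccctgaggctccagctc
S100A4 (chr1:153545807-153545926, minus strand): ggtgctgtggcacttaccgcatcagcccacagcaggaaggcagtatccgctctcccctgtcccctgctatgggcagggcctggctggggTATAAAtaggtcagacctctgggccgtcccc
S100A9 (chr1:153357734-153357853, plus strand): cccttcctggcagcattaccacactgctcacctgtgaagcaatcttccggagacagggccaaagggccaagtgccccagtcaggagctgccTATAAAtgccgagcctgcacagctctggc
S100A2 (chr1:153565845-153565964, minus strand): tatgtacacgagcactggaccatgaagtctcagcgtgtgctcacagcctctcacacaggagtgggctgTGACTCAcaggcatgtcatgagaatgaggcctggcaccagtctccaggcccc

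The levels of the family fell into steps. S100A11, S100A10, S100A4 and S100A6 were the most abundant in every library, with at least 1534 RPKM, and together made up 94.2% of the summed RPKM of the 10 genes in the parent, 93.8% in subclone1 and 92.4% in subclone2. S100P and S100A3 followed between 186 and 483 RPKM, S100A13 and S100A2 between 10.1 and 51.2 RPKM, and S100A14 and S100A9 at or near 0. The sum over the 10 genes was 8366 RPKM in the parent, 10489 RPKM in subclone1 and 10473 RPKM in subclone2, which was 2.02%, 2.51% and 2.50% of all RPKM of the library. Each subclone thus carried 1.25 times the parent's sum, and the sums of the subclones had a ratio of 0.998. The order of the genes was the same in the 3 libraries. Between neighbours in this order only S100A10 with S100A4 in the parent and S100A4 with S100A6 in subclone1 had overlapping intervals, leaving aside S100A14 and S100A9 with 0 to 3 reads.

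**Figure D1:**
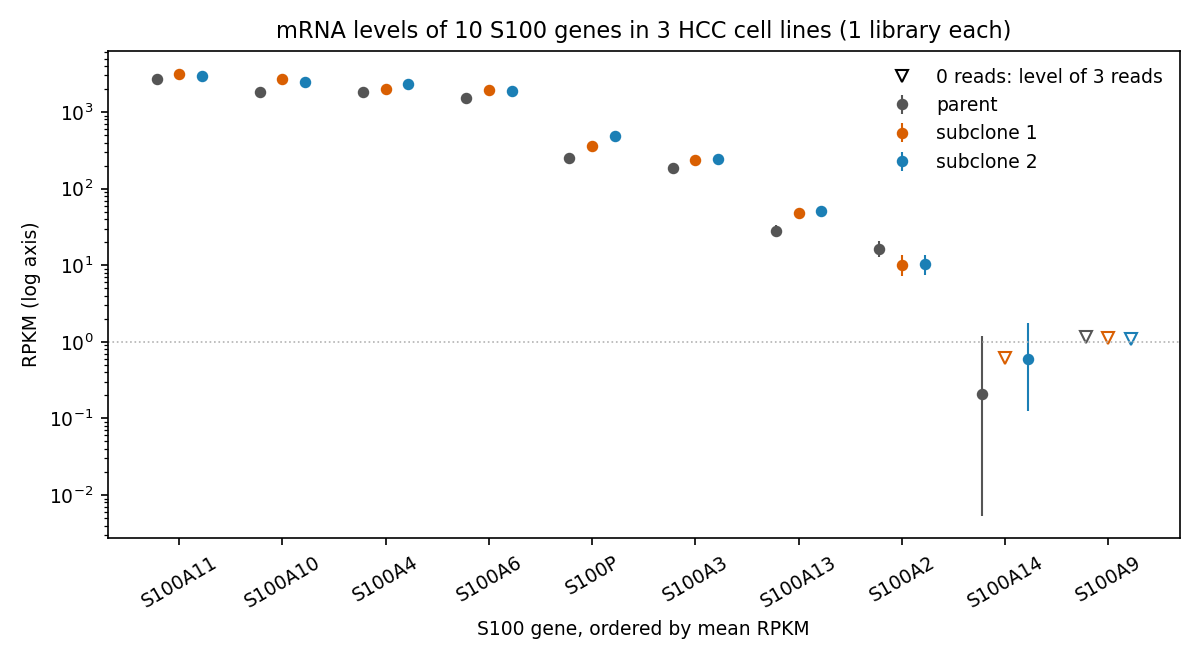
RPKM (log axis) of the 10 S100 genes in the parent (grey), subclone1 (orange) and subclone2 (blue), 1 library each, ordered by mean RPKM. Bars are 95% Poisson counting intervals, and open triangles stand at the level of 3 reads where a library had 0 reads. The 4 most abundant genes lie at 1534 RPKM or more in every library, while S100A14 and S100A9 lie at or below about 1 RPKM.

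None of the 8 genes that averaged 1 RPKM or more reached a 2-fold difference from the parent in either subclone. This is on the log2(RPKM + 0.1) scale, a pseudocount that shrinks ratios of low genes. Subclone1 had 0 of 8 genes past 2-fold, where 6.72% of all 11370 genes were (4.9% higher and 1.82% lower). Subclone2 again had 0 of 8, against 7.49% of all genes (5.33% higher and 2.16% lower). At 1.5-fold, chosen as an alternative, S100A13 was higher and S100A2 lower in subclone1, 1 of 8 genes each way, where 11.6% of all genes were higher and 7.46% lower. In subclone2, S100A13 and S100P were higher and S100A2 lower, where 12.7% and 7.3% of all genes were. Smaller differences ran mostly one way. In both subclones 7 of the 8 genes, all but S100A2, lay above the parent, where 50.4% of all genes did in subclone1, 53.5% in subclone2 and 42.2% in both. The counting intervals of these 7 ratios all lay above 1, and those of S100A2 below. By the same interval rule 19.8% of all genes lay above and 18.9% below in subclone1, and 22.5% above and 17.8% below in subclone2, but abundant genes such as these have narrower intervals than most. The intervals leave out error of scaling. After division by ACTB, log2 ratios over the parent in subclone1 fell below their intervals for S100A4 (0.011), S100A6 (0.20), S100A10 (0.42) and S100A11 (0.12). As deposited they were 0.14, 0.33, 0.55 and 0.25. Division by GAPDH raised the same genes past their intervals in subclone2. Log2 ratios of the 8 genes had a median of 0.34 in subclone1 and 0.38 in subclone2, those of all genes a median of 0.0043 and 0.037. Both comparisons share the parent library, and their agreement is no separate evidence.

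**Figure D2:**
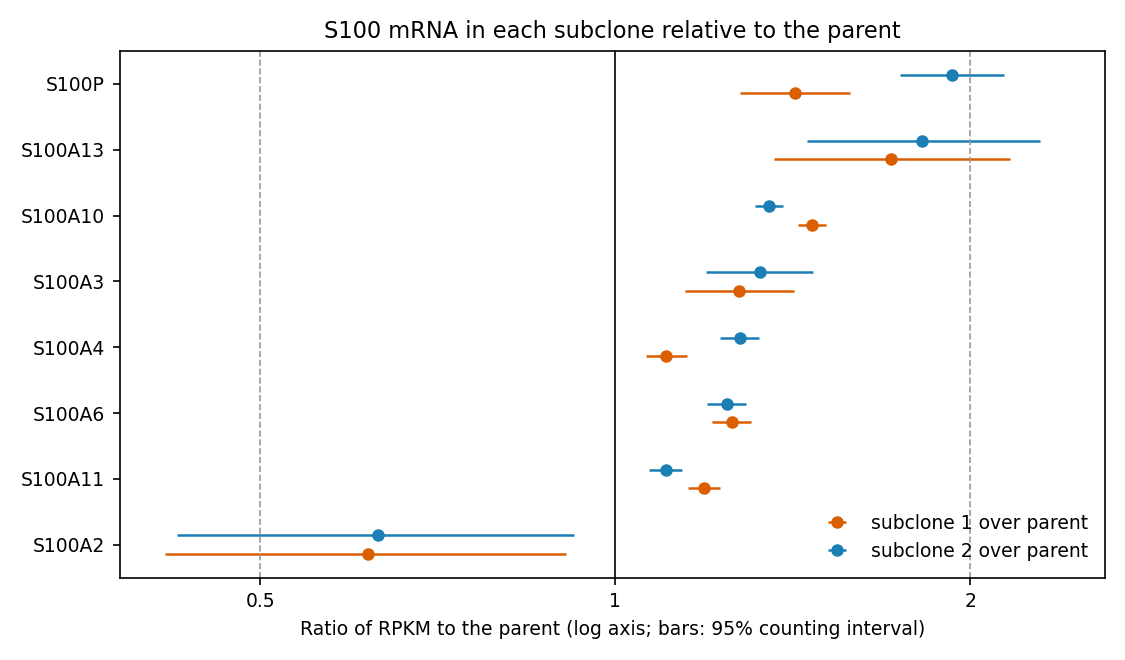
Ratio of RPKM to the parent (log axis) for the 8 S100 genes that averaged 1 RPKM or more, in subclone1 (orange) and subclone2 (blue), with 95% counting intervals. Dashed lines stand at ratios of 0.5 and 2. No point passes a dashed line, 7 genes lie right of 1 in both subclones, and S100A2 lies left of 1 in both.

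S100P, first found in placenta and known to bind ezrin and to be a ligand of AGER, had the largest ratio of the family in subclone2. It stood at 251 RPKM (231 to 272, 574 reads) in the parent, 356 RPKM (332 to 381, 837 reads) in subclone1 and 483 RPKM (456 to 512, 1165 reads) in subclone2. The 3 intervals did not overlap, with the parent lowest and subclone2 highest. Over the parent the fold was 1.42 in subclone1 (1.28 to 1.58) and 1.93 in subclone2 (1.74 to 2.13), at percentiles 85.9 and 94.1 of all genes. Subclone 2 exceeded subclone1 by 1.36-fold (1.24 to 1.49), the largest ratio between the subclones among the 8 genes. Division of each library by GAPDH took S100P in subclone2 over the parent to a log2 ratio of 1.01, just past 2-fold, from 0.95 as deposited, and the upper end of the counting interval of its fold passed 2 without it.

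S100A13, which takes part in the release of FGF1 and IL1A from cells without a signal peptide, had the largest ratio in subclone1. Its level was 28.1 RPKM (23.3 to 33.6, 120 reads) in the parent, 48.1 RPKM (41.9 to 55.1, 211 reads) in subclone1 and 51.2 RPKM (44.8 to 58.2, 230 reads) in subclone2. The subclones overlapped each other and both lay above the parent, with folds of 1.71 (1.36 to 2.16) in subclone1 and 1.82 (1.45 to 2.29) in subclone2. Upper ends of these intervals passed 2-fold, so that a 2-fold difference lies within counting error. In the GENCODE annotation of GRCh38 the S100A13 gene overlaps S100A1 on the other strand and AL162258.1 on its own, with 319 identical bases shared with a transcript of the latter, and the library kit does not mark strand, so some of these reads may belong to those genes.

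S100A10, also called p11, binds annexin A2 as its light chain and is an unusual member whose EF-hands do not bind calcium. It had 1847 RPKM (1809 to 1886, 8862 reads) in the parent, 2711 RPKM (2665 to 2758, 13360 reads) in subclone1 and 2491 RPKM (2448 to 2535, 12583 reads) in subclone2. Its place among all genes went from 14 in the parent to 6 in subclone1 and 7 in subclone2. Both subclones lay above the parent, with folds of 1.47 (1.43 to 1.51) in subclone1 and 1.35 (1.31 to 1.39) in subclone2. The mRNA of its partner ANXA2, a phospholipid-binding protein, moved far less, at 651, 678 and 653 RPKM. The ratio of S100A10 to ANXA2 RPKM was therefore 2.83 in the parent, 4.0 in subclone1 and 3.82 in subclone2. AHNAK, a giant scaffold protein that binds the S100A10 and annexin A2 complex, was looked at after its values were seen: it had 49.2, 72.3 and 69.9 RPKM, with folds over the parent of 1.47 (1.41 to 1.53) and 1.42 (1.37 to 1.48).

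S100A11, a partner of annexins A1 and A2 with roles in membrane repair, was the most abundant of the family in every library. It had 2671 RPKM (2609 to 2734, 7134 reads) in the parent, 3176 RPKM (3110 to 3244, 8712 reads) in subclone1 and 2948 RPKM (2884 to 3012, 8287 reads) in subclone2. Both subclones exceeded the parent, by 1.19-fold (1.15 to 1.23) and 1.10-fold (1.07 to 1.14), the latter the smallest ratio in subclone2 among the 7 higher genes. Its transcript matched those of 10 other genes in GENCODE, with up to 61 identical bases in a row in the processed pseudogene AC006483.1, so that reads of this gene could be shared with copies. S100A11 also overlaps AL450992.1 on the other strand there, so that reads in the shared span could go to either gene.

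S100A6, calcyclin, binds the ubiquitin ligase component CACYBP and several annexins. Its level was 1534 RPKM (1491 to 1579, 4704 reads) in the parent, 1926 RPKM (1878 to 1975, 6065 reads) in subclone1 and 1907 RPKM (1859 to 1955, 6153 reads) in subclone2. The subclones overlapped, and both lay above the parent, with folds of 1.26 (1.21 to 1.30) in subclone1 and 1.24 (1.2 to 1.29) in subclone2. S100A6 overlaps BX470102.1 on the other strand in GENCODE, so that reads in the shared span could go to either gene.

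S100A4, known as metastasin, binds the non-muscle myosin heavy chain MYH9 and is often used to mark fibroblasts. It had 1832 RPKM (1780 to 1886, 4639 reads) in the parent, 2024 RPKM (1970 to 2079, 5262 reads) in subclone1 and 2336 RPKM (2278 to 2395, 6225 reads) in subclone2. The 3 intervals were apart, in the same order of lines as for S100P. The folds over the parent were 1.10 in subclone1 (1.06 to 1.15) and 1.27 in subclone2 (1.23 to 1.32), and that of subclone2 over subclone1 was 1.15 (1.11 to 1.2). Division by ACTB left the ratio of subclone1 over the parent at 0.011 on the log2 scale, against 0.14 as deposited. The 7 fibroblast markers examined summed to 15.7, 31.2 and 24.3 RPKM in the parent, subclone1 and subclone2. They did not move together. LUM, with 48, 117 and 105 reads, and DCN, with 8, 47 and 30 reads, were more than 2-fold above the parent in both subclones, as S100A4 was by less. COL3A1 went the other way, with 109, 56 and 12 reads. PDGFRB was at 0 in every library, COL1A2 and THY1 had at most 1 read and COL1A1 had 9, 11 and 1 reads. The part of these genes in the level of S100A4 was not tested.

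S100A3, a member rich in cysteine that is best known from the hair cuticle, had 186 RPKM (172 to 202, 617 reads) in the parent, 237 RPKM (221 to 254, 807 reads) in subclone1 and 247 RPKM (231 to 264, 861 reads) in subclone2. The subclones overlapped and both lay above the parent, with folds of 1.27 (1.15 to 1.42) in subclone1 and 1.33 (1.19 to 1.47) in subclone2. S100A3 and S100A4 overlap on the same strand in GENCODE, so that reads in the shared span could go to either gene.

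S100A2, a mainly nuclear member of epithelial cells that binds p53, was the exception. Its level was 16.3 RPKM (12.7 to 20.6, 71 reads) in the parent, 10.1 RPKM (7.34 to 13.5, 45 reads) in subclone1 and 10.3 RPKM (7.53 to 13.6, 47 reads) in subclone2. Its level intervals overlapped between the parent and each subclone, while the intervals of the ratios, 0.617 (0.415 to 0.909) in subclone1 and 0.629 (0.425 to 0.922) in subclone2, lay below 1. These ratios stood at percentiles 5.15 and 5.57 of all genes. The counts are small enough that both a difference of under 10% and one past 2-fold lie within counting error. Among 6 markers of squamous epithelium, the tissue where S100A2 is abundant, KRT5 and KRT1 were at 0 in every library. The list summed to 12, 14.4 and 15.7 RPKM, most of it KRT10. The intervals of the KRT10 ratio over the parent held 1 in both subclones (0.893 to 1.51 and 0.993 to 1.66). TP63, which averaged 0.671 RPKM, had 7, 21 and 18 reads and went the other way from S100A2. Its ratio over the parent was 2.92 in subclone1, with an interval above 1. In subclone2 that ratio was 2.44, with an interval that held 1. DSG3 had 7, 10 and 14 reads, with intervals that held 1, and KRT14 had 1, 0 and 0 reads. The part of these genes in the level of S100A2 was not tested.

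S100A14, a member of epithelial cells, had 1 read in the parent (0.211 RPKM), 0 reads in subclone1 and 3 reads in subclone2 (0.601 RPKM). The counting interval in subclone1 reached up to 0.757 RPKM. These reads are too few to set the lines apart, and no ratio was taken. S100A9, which pairs with S100A8 as the calprotectin of neutrophils, had 0 reads in all 3 libraries. With the 577 bases of its GENCODE transcript, 3 reads would be 1.16 RPKM in the parent, 1.13 in subclone1 and 1.10 RPKM in subclone2. Levels below these are not excluded by 0 reads. The 8 neutrophil and monocyte markers summed to 1.76, 3.39 and 2.72 RPKM. Of these, MPO, ELANE and FCGR3B were at 0 in every library too, while ITGAM had 11, 24 and 27 reads, LYZ 7, 7 and 10, CD14 1, 8 and 0, CSF3R 0, 2 and 1, and PTPRC 1, 0 and 0.

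**Figure D3:**
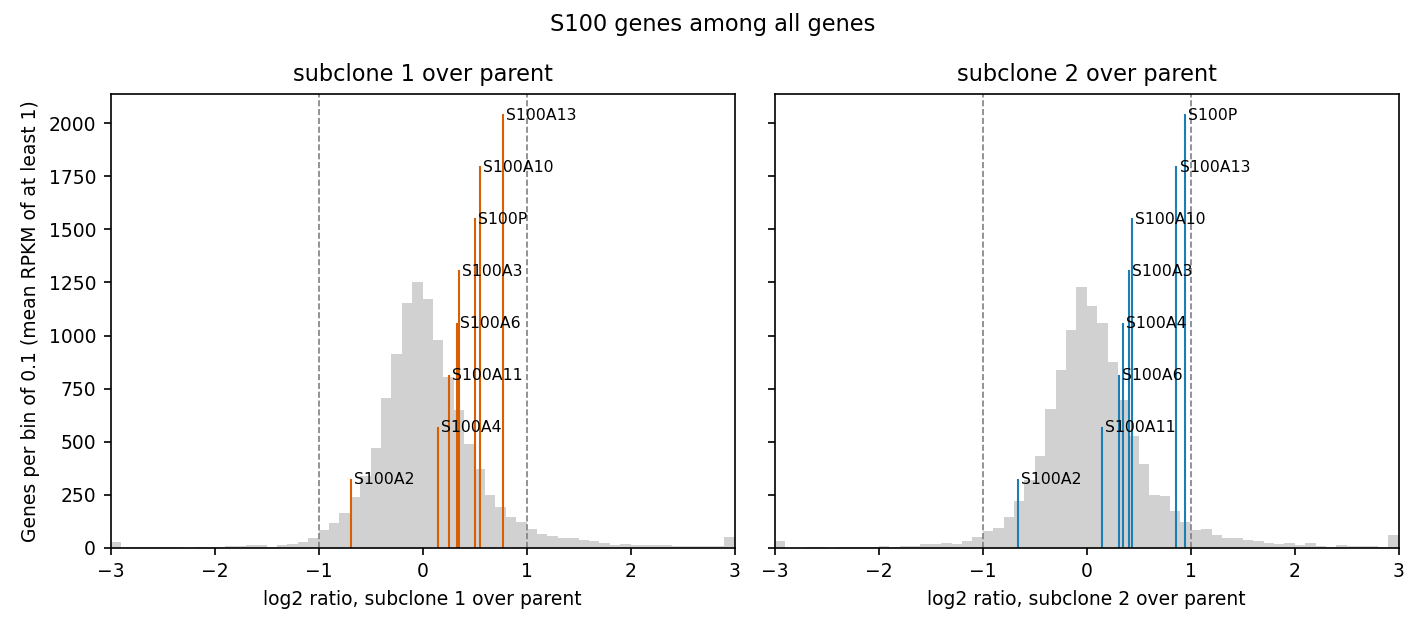
Number of genes per 0.1 of log2 ratio over the parent (grey bars, 11370 genes averaging 1 RPKM or more) in subclone1 (left) and subclone2 (right), with the 8 S100 genes as coloured lines whose height only separates the labels. Genes beyond 3 in either direction are in the end bars, and dashed lines mark 2-fold. S100P and S100A13 stand nearest to the 2-fold line in subclone2, at log2 ratios of 0.95 and 0.86.

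Between the subclones none of the 8 genes that averaged 1 RPKM or more was 2-fold apart either. For subclone2 over subclone1, 0 of 8 genes were past 2-fold, where 2.81% of all genes were (1.42% higher and 1.39% lower), and 5 of 8 lay above 0, as did 56.5% of all genes. The intervals of S100P and S100A4 lay above a ratio of 1, against 11.4% of all genes, and those of S100A10 and S100A11 lay below 1, against 8.34%. S100A10 was at 0.919 times its level in subclone1 (0.897 to 0.942) and S100A11 at 0.928 times (0.900 to 0.956). The direction of both turned when the libraries were divided by ACTB, and that of S100A11 also with GAPDH. For S100A2, S100A3, S100A6 and S100A13 the ratio could not be told from 1 at this depth, with intervals from 0.662 to 1.57, 0.944 to 1.15, 0.955 to 1.03 and 0.878 to 1.29.

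Genes whose ratios over the parent came nearest to those of the leading members were found among genes within a factor of 2 of their mean RPKM. For S100A13, 3 of 2746 such genes lay closest in the pair of log2 ratios: RAC2, a small GTPase of blood cells, at 21.5, 36.9 and 39.4 RPKM, NFKBIA, the inhibitor that holds NF-kB in the cytoplasm, at 35.6, 59.9 and 65.0 RPKM, and SERINC2. For S100P, 251 genes were compared, and the nearest were ATP1B1, the beta subunit of the sodium pump, at 232, 309 and 418 RPKM, B2M, the light chain of MHC class I, at 479, 759 and 856 RPKM, and TAGLN2 at 258, 418 and 458 RPKM. Distances in the pair of log2 ratios were 0.012 to 0.032 for S100A13 and 0.14 to 0.22 for S100P. A likeness over 3 libraries is only a description.

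The rest of the S100 family was nearly silent. Of 11 other S100 genes, S100A7, S100A7A, S100A7L2, S100A8, S100A12, S100B, S100G and S100Z were listed in no library. S100A16 was the only one well expressed, at 99.4, 110 and 101 RPKM in the parent, subclone1 and subclone2, with intervals of both ratios over the parent that held 1 (0.976 to 1.25 and 0.893 to 1.15). S100A1 had 1, 6 and 2 reads. Its ratio of 5.84 in subclone1 over the parent had an interval from 0.709 to 269, and it lies across S100A13 on the other strand. S100A5 had 2, 2 and 1 reads.

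S100 targets inside the cell moved less in the median than the S100 genes themselves. Of 24 such genes 19 had a mean RPKM of at least 1. Relative to the parent their log2 ratios had medians of 0.06 in subclone1 and 0.11 in subclone2. IL1A alone was at least 2-fold from the parent, in both subclones. That is 1 of 19 genes, where 6.72% of all genes were in subclone1 and 7.49% in subclone2. This cytokine, which S100A13 helps to release, had 0.908 RPKM (12 reads) in the parent, 2.95 RPKM (40 reads) in subclone1 and 3.24 RPKM (45 reads) in subclone2, with folds of 3.25 (1.67 to 6.80) and 3.56 (1.85 to 7.40). The most abundant targets were annexins. ANXA2 had folds of 1.04 (1.00 to 1.08) and 1.00 (0.964 to 1.04), ANXA5 of 1.06 (1.01 to 1.11) and 1.18 (1.12 to 1.24), and ANXA1 of 0.761 (0.721 to 0.804) and 0.798 (0.756 to 0.843). ANXA1 thus lay below the parent in both subclones while its partner S100A11 lay above.

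Receptors for secreted S100 proteins differed in both directions. Of 9 genes 7 had a mean RPKM of at least 1, and the medians of their log2 ratios over the parent were 0.22 and 0.25. In subclone1, 1 of the 7 was at least 2-fold higher and 1 lower, where 4.9% and 1.82% of all genes were. In subclone2, 0 were higher and 1 lower, against 5.33% and 2.16%. For subclone2 over subclone1, 1 was higher and 0 lower, against 1.42% and 1.39%. MCAM, an adhesion molecule known to bind the S100A8 and S100A9 complex, was lower in both subclones, at 3.21 RPKM (48 reads) in the parent, 0.716 RPKM (11 reads) in subclone1 and 0.572 RPKM (9 reads) in subclone2, with folds of 0.223 (0.105 to 0.436) and 0.178 (0.0768 to 0.367). CD36, a scavenger receptor, was 2.26-fold above the parent in subclone1 (1.70 to 3.02), and its ratio of 1.13 in subclone2 had an interval that held 1 (0.82 to 1.57). TLR4, the innate immune receptor of S100A9, was at 2.15 times its subclone1 level in subclone2 (1.42 to 3.30), from 35 and 77 reads. BSG, ALCAM and NPTN were the most abundant, and BSG exceeded the parent by folds of 1.43 (1.30 to 1.58) and 1.35 (1.23 to 1.5). NPTN had folds of 1.16 (1.04 to 1.30) and 1.19 (1.06 to 1.33). ALCAM lay below the parent in subclone1 (0.813, 0.762 to 0.867), and its ratio in subclone2 had an interval that held 1 (0.983, 0.925 to 1.04). AGER had 2, 1 and 5 reads.

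Other EF-hand genes showed how calcium-binding proteins outside the family behaved. Of 29 genes 25 had a mean RPKM of at least 1. Of these, 0 were at least 2-fold from the parent in either subclone, against 6.72% of all genes in subclone1 and 7.49% in subclone2. In subclone1, 20 of the 25 lay above the parent, against 50.4% of all genes, with a median log2 ratio of 0.20. In subclone2, 16 lay above it, against 53.5% of all genes, with a median of 0.11. The most abundant were CALM2 and CALM3, which encode the same calmodulin protein, and the calpain small subunit CAPNS1. CALM2 lay below the parent in subclone2 (0.825, 0.781 to 0.873) and CALM3 above it (1.60, 1.48 to 1.72).

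**Figure D4:**
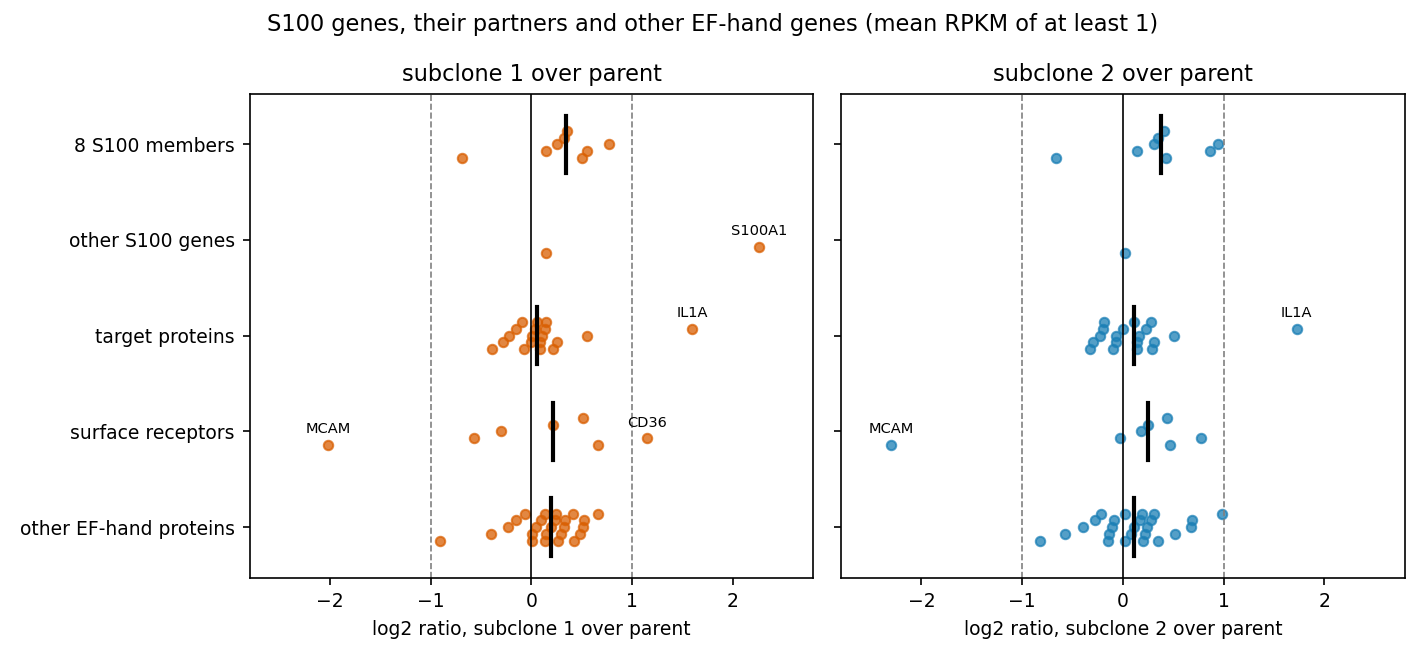
Log2 ratio over the parent in subclone1 (left) and subclone2 (right) for genes averaging 1 RPKM or more, 1 point per gene: the 8 S100 genes, other S100 genes, S100 target proteins, surface receptors and other EF-hand proteins. Black bars are medians of lists of 3 or more genes, dashed lines mark 2-fold, and genes past them are named (S100A1 is not drawn for subclone2, where its reads were too few). S100 medians of 0.34 and 0.38 lie above those of the other 3 lists, and IL1A and MCAM are past 2-fold in both subclones.

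Genes around the S100 genes of chromosome 1 lay on both sides of the parent level. In the RefSeq order, 9 listed genes lay within the run of S100 genes that starts at S100A9, and all were S100 genes. The nearest 10 listed genes on each side included S100A10 and S100A11, and 13 of these 20 had a mean RPKM of at least 1. None of the 13 was at least 2-fold from the parent in either subclone, where 6.72% of all genes were in subclone1 and 7.49% in subclone2. Their log2 ratios ran from -0.65 to 0.78 in subclone1, with a median of 0.13, and from -0.44 to 0.46 in subclone2, with a median of 0.08. In each, 8 of 13 lay above the parent, S100A10 and S100A11 among them, where 50.4% and 53.5% of all genes did.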

How the data were processed

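The 3 libraries were assigned to parent, subclone1 and subclone2 by their titles. The authors deposited RPKM per gene, made from Illumina TruSeq libraries of Trizol RNA, and listed only genes above 0. The submitters' processing notes name build hg19. The aligner, counting tool, annotation and treatment of shared reads are not given in the sources used here. Genes absent from a library counted as 0 there.

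RPKM of a gene in several libraries are whole reads over 1 length and the library totals. To find the totals, 653 and 625 genes whose reads were equal between the parent and a subclone were used, with the step of low genes, 47.9% of which fell on it against 23.4% for the next best total. The reads of a gene were the smallest that were whole in all libraries (tolerance 0.0001, lengths from 200 to 20000 bases). They can be understated by a whole factor, which widens intervals. The recovery of reads and the calls were tested on simulated data.

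Ratios are log2(RPKM + 0.1), and calls are at 2-fold among genes averaging 1 RPKM or more. Folds are ratios of RPKM without the pseudocount. Intervals at 95% are exact Poisson for levels and Clopper-Pearson for ratios, and cover counting error only. Copies of 1 molecule are not told apart, so the intervals may be too narrow even for that. No p-value was computed with 1 library per line. The members and lists were chosen with earlier results of these data known. Named beside the members were the listed genes at least 2-fold apart, the 3 most abundant of each list and the genes nearest in pattern, and AHNAK, AGER and the marker and neighbouring genes were named after their values were seen. Reads of genes that match copies elsewhere were sought with blastn 2.17.0 (word size 20) in GENCODE release 29 transcripts. Start windows and gene order came from RefSeq GRCh38.p14, a build other than that of the RPKM, and no protein sequence was used here. As alternatives, the pseudocount was 0.01 or 1, RPKM were scaled to equal sums, centred, or divided by their upper quartile, ACTB or GAPDH, the filter was dropped or set to 5 RPKM, and the fold was 1.5. Software was Python 3.11.15 with pandas 2.3.3, numpy 2.4.6, scipy 1.17.1 and matplotlib 3.10.9.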

Additional observations from a re-analysis of the deposited data

How the results depend on the processing

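Of 60 counts of S100 genes at least 2-fold from another line under the alternatives, 52 stayed at 0. With no filter, S100A14 alone entered, as 1 gene lower in subclone1 than in the parent, 1 higher in subclone2 than in the parent and 1 higher in subclone2 than in subclone1, all from at most 3 reads. At 1.5-fold, where 11.6% of all genes were higher and 7.46% lower in subclone1, 1 gene was higher (S100A13) and 1 lower (S100A2) in subclone1 than in the parent, and 2 were higher (S100A13 and S100P) and 1 lower (S100A2) in subclone2, against 12.7% and 7.3% of all genes. Division by GAPDH gave 1 gene at least 2-fold higher in subclone2 than in the parent, S100P. Of 168 log2 ratios, 148 stayed within their counting interval and 17 moved outside it, all of S100A4, S100A6, S100A10 or S100A11. A further 3 whose interval excluded 0 changed sign, all for subclone2 over subclone1. They were S100A10 at 0.0033 and S100A11 at 0.018 with ACTB, and S100A11 at 0.0095 with GAPDH. None of the ratios over the parent changed sign. Division by ACTB shifted the median of all genes to -0.13 for subclone1 over the parent and 0.16 for subclone2 over subclone1, and GAPDH to 0.15 for the latter. The share of higher genes among all genes past 2-fold then went from 72.9% to 57.8% for subclone1 over the parent with ACTB, and from 50.5% to 64.0% with ACTB and 62.6% with GAPDH for subclone2 over subclone1. No paired analysis was possible because there was a single library per line, which also kept libraries from being omitted in turn. Depth limits S100A2 most, whose 45 to 71 reads leave wide intervals, and gives no ratio for S100A14 and S100A9.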
